A study of Mus musculus with 12 samples.

Results

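The nuclear genes for mitochondrial complex III, cytochrome c, complex IV and ATP synthase were followed in mouse tibialis anterior, a shin muscle built largely of fast fibres. Members were the gene symbols that begin with Uqcr, with Cox4 to Cox8 or with Atp5, together with Cyc1 and Cycs, after leaving out symbols marked -ps (pseudogenes) and any symbol under 10 counts over the 12 libraries. Of 43 matching symbols, Cox7b2 with 5 counts was below that minimum, which left 42 of the 22607 genes in the table: 9 of complex III, 1 for cytochrome c, 16 of complex IV and 16 of ATP synthase. Cox6b2, a form known from testis, had too few counts to test and was at 0 CPM (a gene's counts relative to a library size scaled by trimmed means) in all 3 fed GFP libraries, so 41 members were tested. Muscles came from C57BL/6 males aged 13 weeks and carried either a GFP (empty) vector or a Crtc2 vector. The mice were fed ad libitum or had gone through 3 rounds of alternate day fasting (ADF), which gave 4 groups of 3 libraries: fed GFP, ADF GFP, fed Crtc2 and ADF Crtc2. The Crtc2 protein works as a partner that boosts transcription by Creb1. The labels name neither the promoter of the vector nor the share of fibres that it reached. They do not say that libraries of a group are separate animals, so p-values measure the spread between libraries, which may be technical.

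Complex III passes electrons from ubiquinol to cytochrome c, a small soluble carrier, and complex IV passes them on to oxygen. Both complexes move protons across the inner mitochondrial membrane, and ATP synthase lets the protons back through its ring to drive the formation of ATP in its F1 head. Each complex joins subunits made in the mitochondrion to subunits from nuclear genes, and striated muscle uses its own isoforms of several small complex IV subunits. The mitochondrially encoded subunits were not analysed here.

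Total counts per library ran from 24232450 to 34610417. Crtc2 itself was at 17.3 to 29.2 CPM in fed GFP and 58.2 to 77.9 CPM in fed Crtc2 libraries, and at 16.1 to 23.6 CPM in ADF GFP and 31.4 to 42.8 CPM in ADF Crtc2 libraries, so the vectors did not overlap within a diet, though edgeR did not call it (log2 fold changes of 1.51 and 0.95, adjusted p of 0.134 and 0.127). The 10 skeletal muscle markers, among them Acta1 and Ckm, summed to between 137751 and 248012 CPM in every library. Of these 10, Acta1 rose under ADF by 1.11 ± 0.18 in GFP and 1.02 ± 0.18 in Crtc2 muscle and Atp2a1 by 1.45 ± 0.18 and 1.49 ± 0.18, while Mylpf fell by 0.81 ± 0.19 and 0.64 ± 0.19, each by edgeR's test. All members together took 2.18 to 3.47% of the counts of a library, with the lowest share in ADF GFP replicate 3. That library also had the lowest median of the members, -0.89 on the log2 scale relative to the fed GFP mean, against -0.35 and -0.45 in the other ADF GFP libraries.

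In GFP muscle many small subunits of all 3 complexes were lower after ADF than with free feeding. Of the 41 members tested, 20 fell and 1 rose at an adjusted p under 0.05 by edgeR's quasi-likelihood test, where 3.06% of all 16007 genes tested fell and 4.06% rose. The median log2 fold change was -0.63 over the members and -0.01 over all genes. In complex III 5 of 9 members fell, all of them small subunits without a redox centre; in complex IV 9 of 15 fell, led by the muscle isoforms Cox7a1 and Cox8b; and in ATP synthase 6 of 16 fell, led by Atp5e. The redox and core subunits of complex III and the large subunits of the F1 head were not called lower. Cyc1, Uqcrc2 and Atp5c1 lay between -0.09 and 0.10 on the log2 scale, Uqcrfs1 at -0.33, and Atp5a1 was the member that rose. The 3 ADF GFP libraries lay wholly below the 3 fed GFP libraries for 23 of 41 members, against 11.3% of all genes, and wholly above for 3, against 14.3%.

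**Figure D1:**
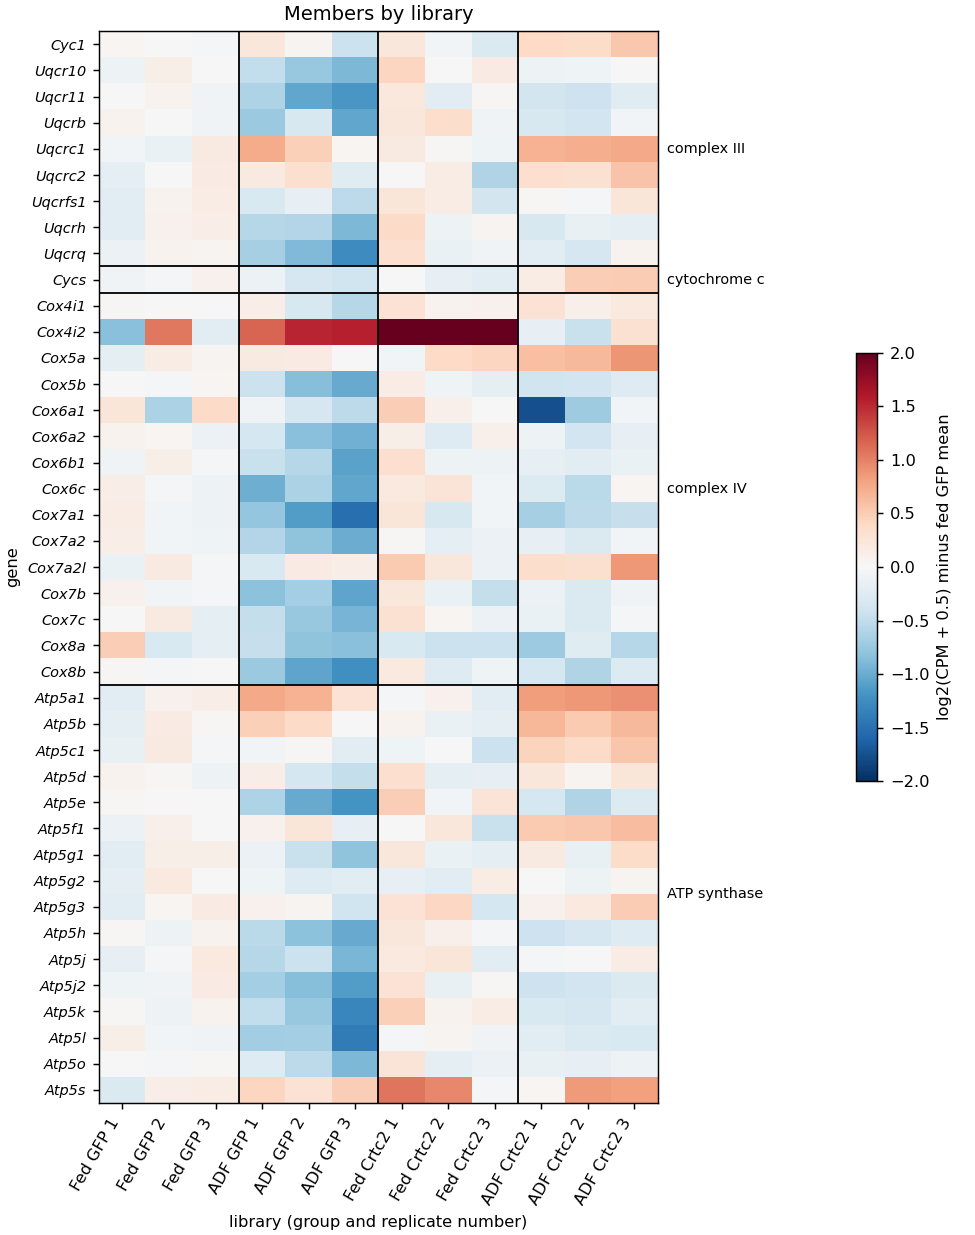
Heat map of the 41 tested members (rows, by complex) in the 12 libraries (columns, by group and replicate). Colour gives log2(CPM + 0.5) minus the mean of the fed GFP libraries and is clipped at 2 in either direction, which cuts off only Cox4i2; blue blocks fill the ADF GFP columns for most small subunits, while Uqcrc1, Atp5a1 and Atp5b are red in the ADF Crtc2 columns.

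Transcript length moved with this pattern. Across the 40 members whose mean reached 10 CPM, the log2 fold change between ADF and fed GFP muscle rose with the length of the principal transcript (Spearman's rho 0.659, a description across genes of the same libraries), and over 7748 other genes at that level rho was 0.271. The 25 members with a principal transcript under 1000 bases had a median of -0.72 and the 15 longer ones a median of -0.03. Among other genes, 604 transcripts under 1000 bases had a median of -0.54 and 7144 longer ones a median of 0.11. With an adjustment for principal transcript length, chosen after seeing the data, 3 members were lower and 1 was higher, with a median of -0.15. At that setting 478 of 7838 genes were lower and 511 higher. Of the 20 falls Atp5j2 (-0.51) and Uqcrq (-0.81) were still called by edgeR, and Atp5g1 (-0.66) was lower and Cox5a (0.63) higher in addition. The principal transcript was taken as the longest of those that GENCODE ranks best, and whether it is the form expressed was not tested. It had 1521 bases for Uqcrq and 4715 for Atp5g1, against 731 for Atp5g2 and 723 for Atp5g3. The adjusted values of Uqcrq and Atp5g1 depend on these lengths. An adjustment on total exon length left 11 lower and 0 higher, with a median of -0.67, where 443 of 15997 genes were lower and 348 higher. Without ADF GFP replicate 3 the counts were 11 lower and 2 higher, where 265 of 16967 genes were lower and 475 higher. The members' median was then -0.45, and Cox7a1 (-0.94) and Cox8b (-0.89) still led. The labels name 2 library kits, an NEBNext Ultra II directional kit and a TruSeq Stranded mRNA preparation, without assigning them, so diet and any difference in kit cannot be told apart, and the part of transcript length in these falls was not tested.

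**Figure D2:**
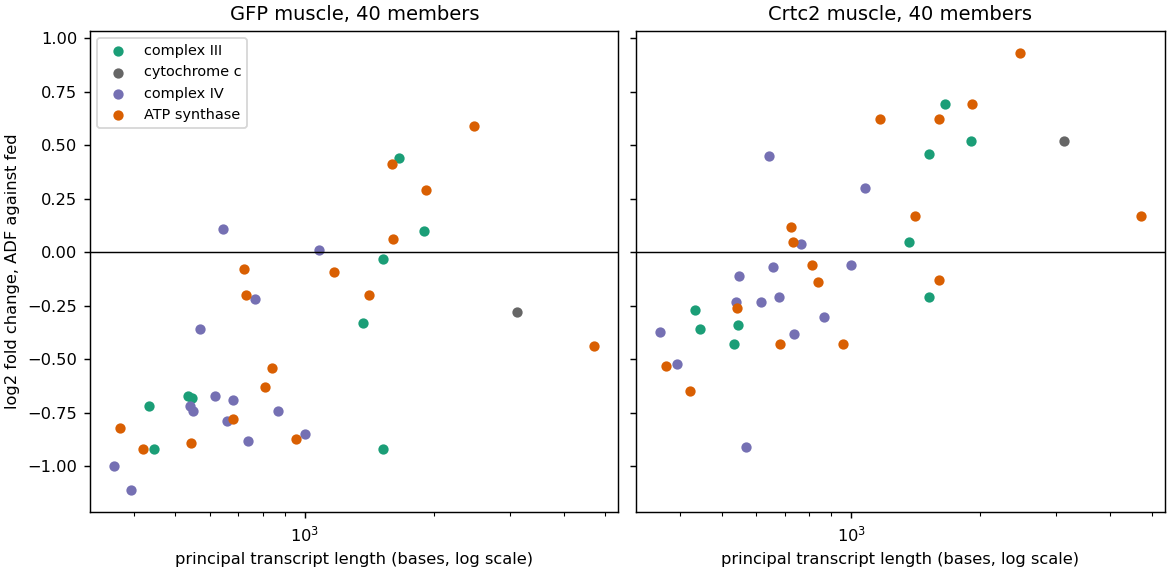
Log2 fold change of ADF against fed muscle (vertical axis) by principal transcript length in bases (horizontal, log scale) for the same 40 members, coloured by complex, in GFP muscle (left) and Crtc2 muscle (right). Short transcripts lie lower than long ones in both, with rho of 0.659 on the left and 0.771 on the right. Uqcrq, placed at 1521 bases, fell in GFP muscle.

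In Crtc2 muscle edgeR called 5 large subunits higher after ADF and 1 small one lower, and the number called lower depended on the setting. Atp5a1, Atp5b, Atp5c1, Atp5f1 and Uqcrc1 rose, 5 of 41 members where 6.3% of all genes rose, and Atp5e alone fell, where 4.68% of all genes fell. The median was -0.13 over the members and -0.13 over all genes. The ADF Crtc2 libraries lay wholly below the fed Crtc2 ones for 13 of 41 members, against 2506 of 16007 genes. They lay wholly above for 9, against 2372 genes. DESeq2 called 6 members lower, where 1547 of 22607 genes were. With only genes of a mean of at least 10 CPM, edgeR called 10 lower, where 946 of 7839 genes were. All 5 rises were still called by edgeR with the adjustment for principal transcript length, which gave 6 higher and 0 lower with Cox5a as the sixth. At that setting 934 of 7838 genes were higher and 845 lower. Scaled to library totals instead of trimmed means, which took the median of all genes from -0.13 to -0.43, the split was 1 higher and 15 lower with a median of -0.42. Of 16007 genes 511 were higher and 1234 lower at that setting. Atp5a1 (0.63) was the rise that remained. Here too length moved with the values: members under 1000 bases had a median of -0.27 and longer ones 0.46. Markers of other cell types moved with this comparison as well. The 7 endothelial markers summed to 353.5 to 496.2 CPM in fed Crtc2 and 243.7 to 303.8 CPM in ADF Crtc2 libraries, and 2 of 7, Kdr (-1.57 ± 0.32) and Esam (-1.13 ± 0.29), fell. The 10 slow fibre markers summed to 393.2 to 811.4 CPM and 283.1 to 420.4 CPM, with Tnnt1 (-2.18 ± 0.38) and Tpm3 (-1.05 ± 0.32) lower, and the 8 T and NK cell markers to 7.04 to 69.9 CPM and 1.12 to 4.66 CPM, with Cd3g lower. The 4 satellite cell markers summed to 6.66 to 10.3 CPM and 0.632 to 4.36 CPM with 0 of 4 called, and 0 of 10 macrophage and 0 of 7 fibroblast markers were called. Their part in the members' values was not tested.

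**Figure D3:**
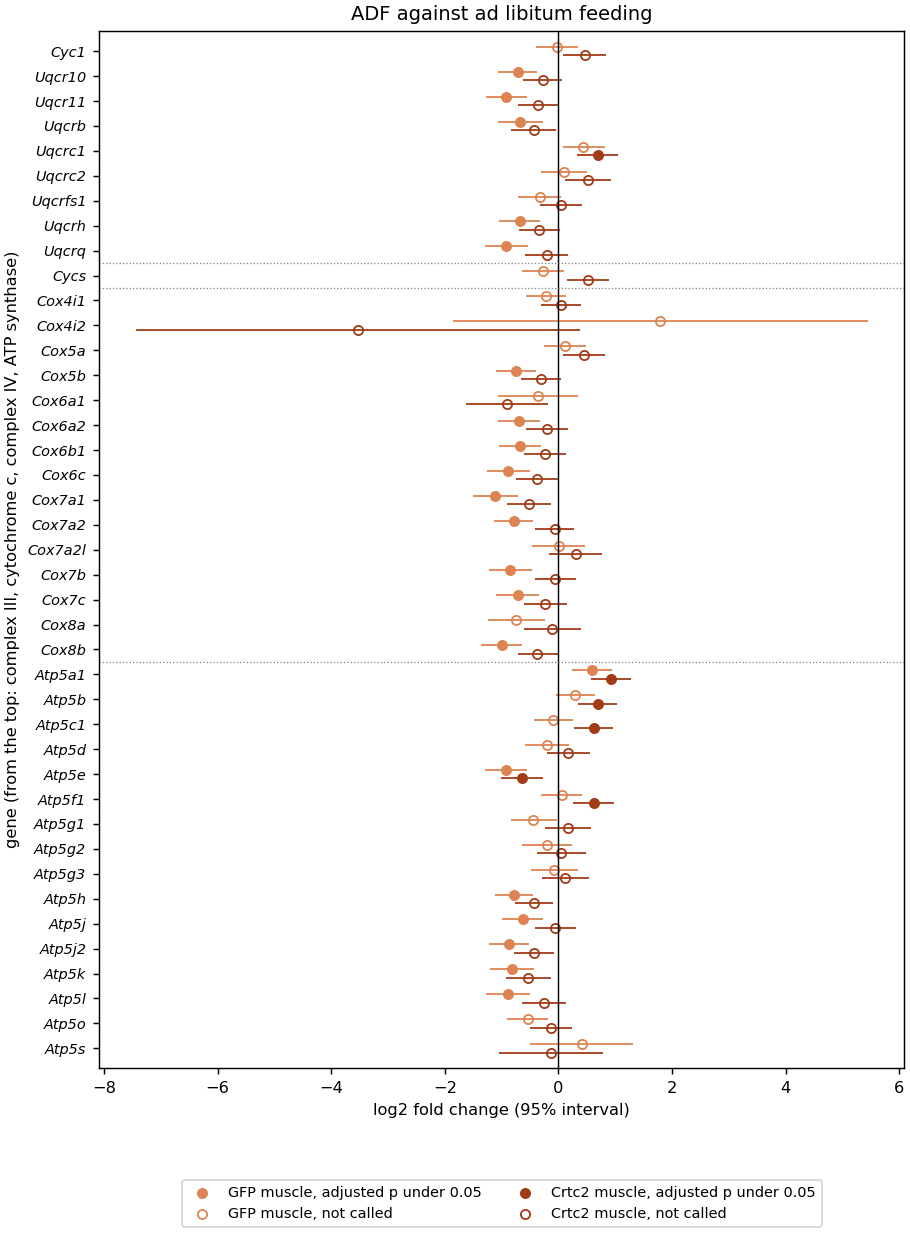
Log2 fold changes of ADF against fed muscle (horizontal axis, with 95% intervals from edgeR) for the 41 tested members in GFP muscle (light) and Crtc2 muscle (dark); filled points had an adjusted p under 0.05. In GFP muscle 20 points are filled left of 0 and 1 right of it; in Crtc2 muscle 5 are filled on the right and 1 on the left.

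Between the vectors in fed muscle no difference was called. Of 41 members, 0 were called by edgeR or by DESeq2, 0 had an unadjusted p under 0.05, where 3.17% of all genes were higher and 2.27% lower at that level, and the median was 0.03. The fed GFP and fed Crtc2 libraries overlapped for 38 of 41 members; Cox4i1 and Cox4i2 were wholly higher in Crtc2, as were 4.7% of all genes, and Cox8a wholly lower, as were 3.84%. At the adjusted threshold 0% of all genes were called in this comparison.

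Under ADF, Crtc2 muscle had higher values than GFP muscle for 39 of 41 members, but none passed the adjusted threshold in edgeR. A positive log2 fold change was seen in 48.4% of all genes, and 31 members had an unadjusted p under 0.05, where 4.07% of all genes were higher at that level; at the adjusted threshold 0.075% of all genes were higher and 0.65% lower. The medians were 0.46 in complex III, 0.52 in complex IV and 0.48 in ATP synthase, 0.50 over all members and -0.01 over all genes, and the 3 ADF Crtc2 libraries lay wholly above the 3 ADF GFP libraries for 28 members, against 9.6% of all genes. The smallest adjusted p was 0.055, for Uqcrq at 0.77 ± 0.18 (SE, as for every log2 fold change given with an error). DESeq2 called 14 members higher, where it called 1.08% of the genes to which it gave an adjusted p. Fitted to those 2 groups alone, edgeR called 5 members higher, where 59 of 14099 genes were higher. With the adjustment for principal transcript length the median was 0.26 and Cycs alone was called, where 14 of 7838 genes were higher. Scaled to library totals the median was 0.31, where that of all genes was -0.22. Members under 1000 bases had a median of 0.51 and longer ones 0.46, while other genes had 0.27 and 0.07. Without ADF GFP replicate 3 the median was 0.36.

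Markers of other cell types moved with this comparison. The 10 macrophage markers summed to 314 to 559 CPM in ADF GFP and 94.3 to 150.4 CPM in ADF Crtc2 libraries, and 3 of 10 (Csf1r, C1qc and Cd68) fell by edgeR's test. Their sums were also apart in fed muscle, at 239.9 to 317 CPM with GFP and 123.2 to 218.4 CPM with Crtc2, with 0 of 10 called. The sums of the other marker lists overlapped between the vectors in fed muscle. The 8 T and NK cell markers summed to 22.4 to 61.0 CPM and 1.12 to 4.66 CPM, with Cd3g and Gzma at 0 in all 3 ADF Crtc2 libraries. The 7 fibroblast markers summed to 1660.5 to 3484 CPM and 800.4 to 1233 CPM, with 0 of 7 called, and the 10 slow fibre markers to 455 to 520.0 CPM and 283 to 420.4 CPM, with 2 of 10 lower. The skeletal muscle markers summed to 168092 to 248012 CPM in ADF GFP and 215041 to 243869.5 CPM in ADF Crtc2 libraries, with 0 of 10 called. The endothelial sum was 305.6 to 462.5 CPM in ADF GFP and 243.7 to 303.8 CPM in ADF Crtc2 libraries with 0 of 7 called, and the satellite cell sum 5.44 to 7.17 CPM and 0.632 to 4.36 CPM with 0 of 4 called; neither overlapped. The part of other cells in the members' values was not tested, and in bulk muscle fewer cells of a type and less RNA per cell cannot be told apart. Between fed and ADF GFP muscle the macrophage sum went from 239.9 to 317 CPM up to 314 to 559 CPM with 0 of 10 called, and the fibroblast sum from 773 to 2046 CPM up to 1660.5 to 3484 CPM with 1 of 7 higher. The 5 adipocyte markers tested included 1, Cfd, that rose there (1.64 ± 0.47), and the sum of the list went from 8.15 to 19.3 CPM up to 28.7 to 49.2 CPM. Of the 10 slow fibre markers, Tnnt1 fell there by 1.25 ± 0.37. The 5 erythrocyte markers summed to 74 to 152.4 CPM in fed GFP and 119.1 to 396.2 CPM in ADF GFP libraries, with 0 of 5 called.

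**Figure D4:**
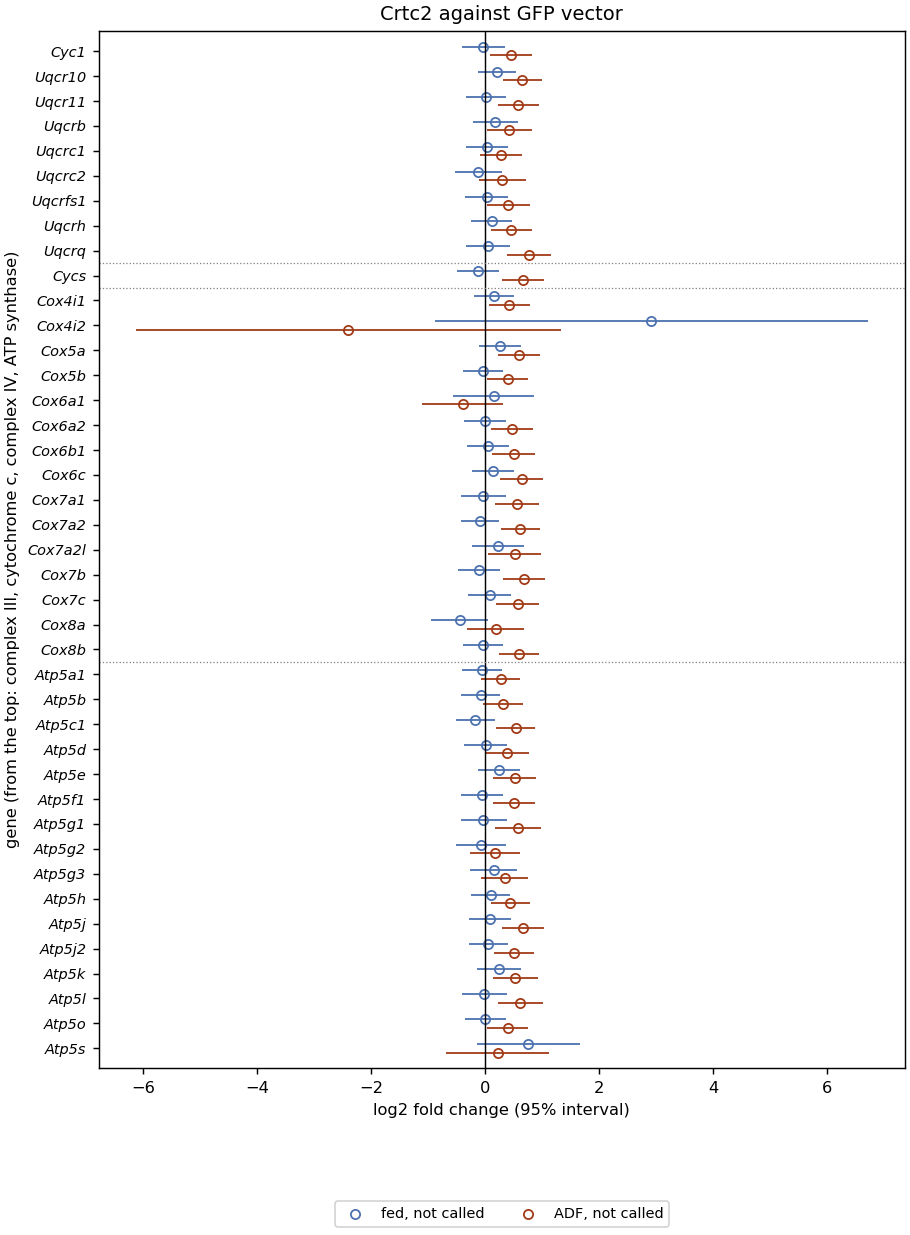
Log2 fold changes of Crtc2 against GFP muscle (horizontal axis, with 95% intervals from edgeR) for the 41 tested members, fed (blue) and under ADF (red); open points did not pass an adjusted p of 0.05, which here is every point. The fed values centre on a median of 0.03 and the ADF values on 0.50.

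The diet by vector interaction, which asks whether the response to ADF differed between the vectors, was called for 0 of 41 members by edgeR, with 0% of all genes called. For 12 members the unadjusted p was under 0.05 with a positive interaction, where 2.69% of all genes were, and the median was 0.44. The smallest adjusted p was 0.516, shared by Cycs (0.80 ± 0.25), Cox7b (0.79 ± 0.25), Cox7a2 (0.72 ± 0.23) and Atp5c1 (0.71 ± 0.23). DESeq2 called Cycs, Cox7a2 and Atp5c1, where it called 0.322% of the genes to which it gave an adjusted p. By edgeR the responses to ADF were therefore not shown to differ between the vectors. The comparisons of ADF with feeding in both vectors and of the vectors under ADF share libraries.

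In complex III, none of the 4 redox and core subunits was called in GFP muscle, and Uqcrc1 rose in Crtc2 muscle. Cyc1, the cytochrome c1 that hands electrons to cytochrome c, was at 782, 754 and 737 CPM in the fed GFP libraries and 885, 785 and 562 CPM in the ADF GFP libraries, and at 887, 727 and 620.0 CPM in fed Crtc2 and 996, 974 and 1096 CPM in ADF Crtc2 libraries. Its ADF Crtc2 libraries lay above every fed Crtc2 and every ADF GFP library, with log2 fold changes of 0.46 ± 0.18 and 0.46 ± 0.18 that did not pass (adjusted p = 0.115 and 0.329 by edgeR). Uqcrfs1, the Rieske iron-sulphur protein, was at 647, 795 and 842 CPM in fed GFP and 612, 673 and 526 CPM in ADF GFP, and at 896, 839.8 and 589 CPM in fed Crtc2 and 766, 739 and 896 CPM in ADF Crtc2 libraries. Only the 2 ADF groups were apart, with the Crtc2 libraries higher (0.41 ± 0.18). Uqcrc1 and Uqcrc2 are the core proteins on the matrix side. Uqcrc1 (chr9:108936633-108949623, plus strand, GRCm38) was at 969.8, 919.7 and 1137 CPM in fed GFP and 1679, 1401 and 1034 CPM in ADF GFP libraries, where the lowest ADF library lay within the fed range. In Crtc2 muscle Uqcrc1 was at 1136, 1017 and 945 CPM fed and 1619, 1668 and 1698 CPM under ADF, with no overlap, a rise of 0.69 ± 0.17 (adjusted p = 0.0123 by edgeR, 1.61-fold). Uqcrc2 changed by 0.10 ± 0.20 in GFP and 0.52 ± 0.20 in Crtc2 muscle, neither called.

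The 5 small complex III subunits all fell in GFP muscle under ADF, and none was called in Crtc2 muscle. Uqcr11 (chr10:80402997-80406830, minus strand), a short accessory subunit of the membrane part, was at 543, 568 and 516 CPM in fed GFP and 352, 264 and 243 CPM in ADF GFP libraries, a fall of 0.92 ± 0.17 (1.89-fold lower, adjusted p = 0.00175 by edgeR). With the Crtc2 vector it was at 624, 469.8 and 552 CPM fed and 420.3, 405 and 458 CPM under ADF, also apart, with a log2 fold change of -0.36 ± 0.17 that did not pass. Uqcrq, a small ubiquinone-binding subunit, was at 694, 789.9 and 782 CPM in fed GFP and 476, 409 and 315 CPM in ADF GFP libraries and fell by 0.92 ± 0.18 (adjusted p = 0.00312). Its fed Crtc2 libraries at 948, 685 and 719.9 CPM and its ADF Crtc2 libraries at 649, 599 and 791 CPM overlapped, and every ADF Crtc2 library lay above every ADF GFP library. Uqcr10, another membrane subunit, was at 499, 583 and 536 CPM in fed GFP and 381, 317 and 288 CPM in ADF GFP, and at 724, 541 and 605 CPM in fed Crtc2 and 499, 506 and 542 CPM in ADF Crtc2 libraries. Its ADF GFP libraries were the lowest of the 4 groups without overlap, and it fell by 0.72 ± 0.17 in GFP muscle. Uqcrh, the acidic hinge protein at the cytochrome c1 site, fell by 0.68 ± 0.17 and Uqcrb, which binds ubiquinone, by 0.67 ± 0.19, with adjusted p of 0.0149 and 0.0334 by edgeR.

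Promoter sequence was read for members whose values led a complex or that held a searched motif. RefSeq, on GRCm38.p6, gave a promoter window for 33 of the 42 members, and some genes had several starts. In the whole 250 bases before each RefSeq start, 5 exact motifs were searched on both strands, and a gene was counted if any of its starts had a match: the CRE bound by Creb1 (TGACGTCA), the NRF1 site (its core CGCATGCG), the ETS core bound by GABPA (CCGGAAG), the ERR site (TCAAGGTCA) and the YY1 site (AAGATGGC). The ETS core was in 8 of 33 members, against 7.83% of 27025 genes in the table, the NRF1 core in 6, Cycs, Cox6a1, Atp5g2, Atp5j, Atp5k and Atp5l, against 1.75%, the CRE in 2, Cycs and Uqcrfs1, against 1.77%, and the ERR and YY1 sites in 1 each, against 0.422% and 1.83%. The NRF1 core is shorter than the full site and was chosen after a search with a longer form. These counts include bases that lie inside the GENCODE gene and starts further along the gene, as for Atp5j, so they cover more than the lines printed here. A match is a description of letters and not a shown site. The windows of Uqcr11 (chr10:80406831-80407071, minus strand) and Atp5e (chr2:174464106-174464351, minus strand) are shown because Uqcr11 was among the complex III members with the lowest log2 fold changes and Atp5e was the F1 head member that fell, and both hold the ETS core, in capitals, which begins 66 bases before the start in Uqcr11 and, in reverse, 102 bases before it in Atp5e. Each line runs 5′ to 3′ on the gene's strand and is trimmed to stop at the RefSeq start or, where it comes earlier, at the start of the GENCODE gene.
Uqcr11: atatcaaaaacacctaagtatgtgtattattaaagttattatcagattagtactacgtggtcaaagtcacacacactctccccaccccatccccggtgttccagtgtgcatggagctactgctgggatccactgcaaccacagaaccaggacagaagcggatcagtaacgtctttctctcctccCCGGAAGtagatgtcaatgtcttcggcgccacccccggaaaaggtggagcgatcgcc
Atp5e: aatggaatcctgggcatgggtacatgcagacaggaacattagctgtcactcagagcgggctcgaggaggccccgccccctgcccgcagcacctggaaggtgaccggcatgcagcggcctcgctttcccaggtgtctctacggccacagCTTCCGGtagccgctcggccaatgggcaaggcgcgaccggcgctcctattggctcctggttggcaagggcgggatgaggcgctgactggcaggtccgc

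Cytochrome c had opposite signs under ADF in the 2 vectors, neither called. Cycs (chr6:50562563-50566538, minus strand) encodes somatic cytochrome c. It was at 129, 133 and 143 CPM in fed GFP and 124, 107 and 102 CPM in ADF GFP libraries, which did not overlap, with a log2 fold change of -0.28 ± 0.18 that did not pass (adjusted p = 0.415 by edgeR). In Crtc2 muscle it was at 134, 119.9 and 117 CPM fed and 149, 189.5 and 192 CPM under ADF, again apart but in the other direction, with 0.52 ± 0.18 (adjusted p = 0.0657). The 3 ADF Crtc2 libraries were the highest of all 12, and against ADF GFP the difference was 0.67 ± 0.18 (adjusted p = 0.0855 by edgeR and 0.0012 by DESeq2). In fed muscle Cycs was at -0.13 ± 0.18 with Crtc2 against GFP, also uncalled. The Cycs window (chr6:50566570-50566819, minus strand) is shown because it holds 2 of the searched motifs, in capitals. The full CRE begins 169 bases before the start and the NRF1 core 61 bases before it. Whether Creb1 or Crtc2 acts at this CRE was not tested.
Cycs: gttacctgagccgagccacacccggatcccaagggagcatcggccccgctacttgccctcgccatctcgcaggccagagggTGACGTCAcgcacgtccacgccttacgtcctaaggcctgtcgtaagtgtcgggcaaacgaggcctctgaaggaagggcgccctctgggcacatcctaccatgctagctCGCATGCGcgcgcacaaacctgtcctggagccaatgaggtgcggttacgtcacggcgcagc

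In the fit without a length adjustment, the muscle isoforms Cox7a1 and Cox8b of complex IV had the largest falls of any member in GFP muscle, while with the principal length adjustment several members, among them Uqcrq (-0.81), Atp5g1 (-0.66) and Atp5j2 (-0.51), lay lower than both. Cox7a1 (chr7:30184144-30186078, plus strand), the muscle and heart form of a small subunit at the dimer contact, was at 974, 848 and 822 CPM in fed GFP and 512, 403 and 309 CPM in ADF GFP libraries. The groups lay far apart, with a fall of 1.11 ± 0.19 (2.16-fold lower, adjusted p = 0.000699 by edgeR), which was -0.48 with an adjusted p of 0.0746 after the principal length adjustment. In Crtc2 muscle it was at 1036, 703 and 845 CPM fed and 554, 610.4 and 637 CPM under ADF, apart again, with -0.52 ± 0.19 (adjusted p = 0.0839). Cox7a2, the form found in most tissues, was at 430.2, 377 and 369 CPM in fed GFP and 261, 223 and 197 CPM in ADF GFP libraries, a fall of 0.79 ± 0.16 (adjusted p = 0.00428 by edgeR). Its fed Crtc2 libraries at 398, 344 and 361 CPM and ADF Crtc2 libraries at 351, 322 and 376 CPM overlapped, and the ADF Crtc2 libraries lay wholly above the ADF GFP ones. Cox7a2l, a related factor of supercomplex assembly and not a subunit of most complex IV, was between 62.8 and 142.8 CPM and uncalled.

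Cox8b (chr7:140898945-140900446, minus strand), the striated muscle form of the smallest subunit, was at 862, 841 and 853 CPM in fed GFP and 506, 411 and 362 CPM in ADF GFP libraries, a fall of 1.00 ± 0.17 (2-fold lower, adjusted p = 0.000759 by edgeR). After the principal length adjustment the value was -0.35, with an adjusted p of 0.15. Its fed Crtc2 libraries were at 972, 713 and 807 CPM and its ADF Crtc2 libraries at 668, 560.2 and 702 CPM, which did not overlap and were not called (-0.37 ± 0.17). Cox8a, the widespread form, was far lower, at 109.6, 63.1 and 68.3 CPM in fed GFP and 56.3, 44.3 and 43.6 CPM in ADF GFP, and at 62.7, 57.5 and 57.6 CPM in fed Crtc2 and 46.7, 65.9 and 52.1 CPM in ADF Crtc2 libraries. The GFP groups were apart with -0.74 ± 0.24, which did not pass (adjusted p = 0.0673 by edgeR), and 1 fed GFP library stood above the rest. The windows before Cox7a1 (chr7:30183921-30184143, plus strand) and Cox8b (chr7:140900447-140900696, minus strand) are shown because these genes fell most in the fit without a length adjustment. Neither held any of the 5 motifs, so both are in lower case throughout.
Cox7a1: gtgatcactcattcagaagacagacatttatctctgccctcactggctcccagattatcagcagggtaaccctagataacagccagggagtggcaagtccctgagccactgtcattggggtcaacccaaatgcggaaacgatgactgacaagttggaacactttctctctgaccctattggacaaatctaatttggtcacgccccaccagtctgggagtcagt
Cox8b: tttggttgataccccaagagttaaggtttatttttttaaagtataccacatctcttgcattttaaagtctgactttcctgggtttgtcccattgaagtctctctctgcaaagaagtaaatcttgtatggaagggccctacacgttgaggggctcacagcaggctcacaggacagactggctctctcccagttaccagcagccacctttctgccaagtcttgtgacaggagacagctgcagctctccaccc

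Cox6a2, the striated muscle form of subunit 6A, was the most abundant complex IV member in counts. It was at 1626, 1596 and 1433 CPM in fed GFP and 1219, 864 and 793 CPM in ADF GFP libraries, apart, a fall of 0.69 ± 0.18 (adjusted p = 0.0181 by edgeR). In Crtc2 muscle the fed libraries at 1688, 1299 and 1661 CPM and the ADF libraries at 1437, 1188 and 1389 CPM overlapped. Cox6a1, its counterpart in other tissues, was low, at 58.9, 31.9 and 64.4 CPM in fed GFP and 47.1, 39.1 and 34.4 CPM in ADF GFP, and at 69.9, 53.0 and 49.1 CPM in fed Crtc2 and 14.3, 30.0 and 47.4 CPM in ADF Crtc2 libraries. The Crtc2 groups did not overlap, and the difference of -0.91 ± 0.34 did not pass (adjusted p = 0.101). Cox4i1, the common form of the largest nuclear subunit, was at 1018, 989 and 992 CPM in fed GFP and 1090.3, 805 and 671 CPM in ADF GFP, and at 1225, 1045 and 1066 CPM in fed Crtc2 and 1225, 1069 and 1148 CPM in ADF Crtc2 libraries. It was called in 0 of 5 comparisons, with the ADF GFP libraries spread on both sides of the fed ones. Cox4i2, the form known from lung and low oxygen, was low: 0, 1.36 and 0.27 CPM in fed GFP, 1.5, 2.06 and 2.12 CPM in ADF GFP, 4.77, 3.4 and 4.29 CPM in fed Crtc2 and 0.302, 0.158 and 0.604 CPM in ADF Crtc2 libraries. Its fed Crtc2 libraries lay above all others without overlap, yet at -3.53 ± 1.88 for ADF in Crtc2 muscle edgeR did not call it (adjusted p = 0.257), while DESeq2 did (-3.59, adjusted p = 0.0147).

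Among the remaining small complex IV subunits, Cox6c was at 666, 594 and 569.7 CPM in fed GFP and 308, 391 and 296 CPM in ADF GFP libraries and fell by 0.88 ± 0.18 (adjusted p = 0.00347 by edgeR). Its Crtc2 libraries were at 698, 731 and 586 CPM fed and 506, 420.2 and 624 CPM under ADF, overlapping. Cox7b was at 917, 834 and 836 CPM in fed GFP and 487, 537 and 415 CPM in ADF GFP libraries, a fall of 0.85 ± 0.18, and at 1008, 787 and 617 CPM in fed Crtc2 and 790.5, 707 and 824 CPM in ADF Crtc2 libraries. Its ADF GFP libraries were lower than those of every other group. Cox5b, a zinc-binding subunit on the matrix side, was at 654, 636 and 666 CPM in fed GFP and 485, 362 and 324 CPM in ADF GFP libraries, a fall of 0.74 ± 0.17. Its fed Crtc2 libraries were at 722, 611 and 571 CPM and its ADF Crtc2 libraries at 497, 500.2 and 546 CPM, apart but uncalled (-0.30 ± 0.17). Cox7c and Cox6b1, the latter on the side facing cytochrome c, fell by 0.72 ± 0.18 and 0.67 ± 0.18 in GFP muscle. Cox5a, another nuclear subunit of the matrix side, was at 0.11 ± 0.18 in GFP muscle and 0.45 ± 0.18 in Crtc2 muscle, neither called in the fit without a length adjustment; the ADF Crtc2 libraries lay wholly above the fed Crtc2 ones.

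The balance of paired isoforms was compared within libraries for 4 pairs, as the difference of their log2 CPM, over diet and over vector (8 tests). All pairs but Cox4i2 over Cox4i1 set a muscle form against a common one. For Cox7a1 over Cox7a2 the log2 ratio was 1.18, 1.17 and 1.16 in fed GFP, 0.97, 0.85 and 0.64 in ADF GFP, 1.38, 1.03 and 1.23 in fed Crtc2, and 0.66, 0.92 and 0.76 in ADF Crtc2 libraries. Every ADF library lay below every fed library, by a mean of 0.34 in GFP and 0.43 in Crtc2 muscle. The mean difference was -0.39, with a two-sided exact permutation p of 0.005 within vectors, the smallest that 400 arrangements can give, and an adjusted p of 0.04 over the 8 tests. With 1 library left out, where fewer arrangements exist, the difference was -0.43 to -0.34, and without any 1 of the fed GFP libraries, fed Crtc2 replicate 1 or ADF Crtc2 replicate 1 or 3 its adjusted exact p was 0.08. Cox7a1 has the shorter principal transcript, 393 bases against 659, and the part of length in this ratio was not tested. The pairs Cox6a2 over Cox6a1 (0.22), Cox8b over Cox8a (-0.27) and Cox4i2 over Cox4i1 (-0.33) did not pass for diet, with adjusted exact p of 0.914, 0.427 and 0.914. For vector no pair passed, with adjusted exact p between 0.28 and 0.97.

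**Figure D5:**
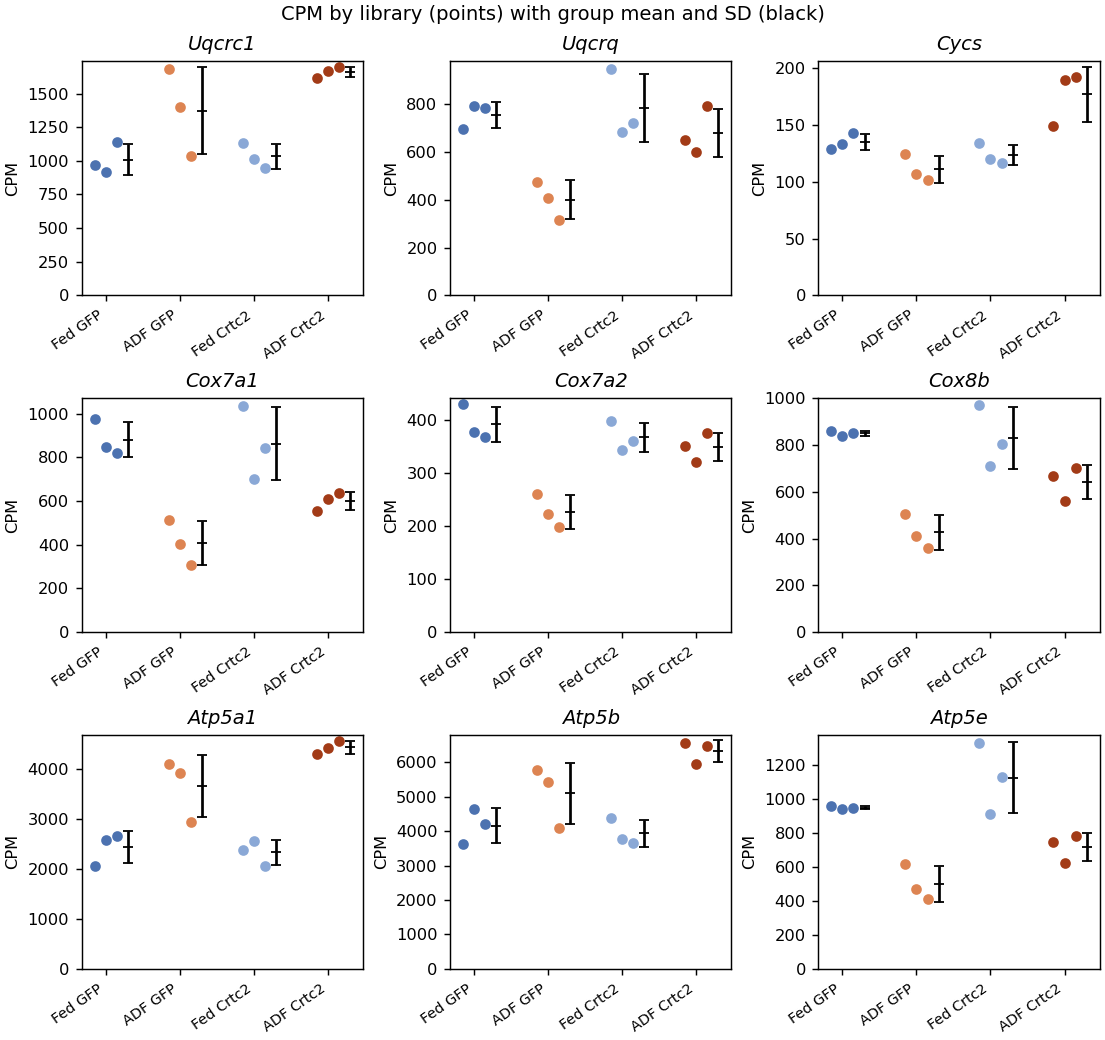
CPM in each library (coloured points, replicates side by side) for 9 members in the 4 groups, with the mean and SD of each group in black. Cox7a1, Cox7a2, Cox8b, Atp5e and Uqcrq are lowest in ADF GFP; Cycs, Atp5a1 and Atp5b are highest in ADF Crtc2.

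In ATP synthase under ADF, 1 of the 5 F1 head members rose and 1 fell in GFP muscle, and 3 rose and 1 fell in Crtc2 muscle. The catalytic head is built of alternating alpha and beta subunits, Atp5a1 and Atp5b, around the gamma shaft, Atp5c1. Atp5a1 was at 2062, 2574 and 2652 CPM in fed GFP and 4098, 3919 and 2943 CPM in ADF GFP libraries, apart, a rise of 0.59 ± 0.17 (adjusted p = 0.0337 by edgeR). This call did not hold without any 1 of the fed GFP libraries (adjusted p of 0.181, 0.0556 and 0.0531), nor without ADF GFP replicate 1 (0.113) or 2 (0.137), ADF Crtc2 replicate 2 (0.0516) or 3 (0.051). In Crtc2 muscle Atp5a1 was at 2375, 2558 and 2054 CPM fed and 4298, 4426 and 4562 CPM under ADF, a rise of 0.93 ± 0.17 (1.9-fold, adjusted p = 0.00076). Atp5b (chr10:128083273-128090391, plus strand) was at 3628, 4646 and 4221 CPM in fed GFP and 5786, 5418 and 4105 CPM in ADF GFP libraries, overlapping, with 0.29 ± 0.17 uncalled. In Crtc2 muscle it was at 4374, 3766 and 3669.6 CPM fed and 6550.3, 5965 and 6487 CPM under ADF, apart, a rise of 0.69 ± 0.17 (1.61-fold, adjusted p = 0.0086 by edgeR). Atp5c1 rose by 0.62 ± 0.16 in Crtc2 muscle and was at -0.09 ± 0.16 in GFP muscle; without fed Crtc2 replicate 3 or ADF Crtc2 replicate 3 its adjusted p was 0.0754 and 0.0739. The Atp5b window (chr10:128083057-128083272, plus strand) is shown as that of the most abundant member in counts and held none of the 5 motifs.
Atp5b: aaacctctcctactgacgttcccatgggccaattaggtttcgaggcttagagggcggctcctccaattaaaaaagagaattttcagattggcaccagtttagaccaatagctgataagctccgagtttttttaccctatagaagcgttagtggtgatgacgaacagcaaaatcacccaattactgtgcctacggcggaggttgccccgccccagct

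Atp5e, the tiny epsilon subunit at the foot of the shaft whose window is shown above, fell under ADF with both vectors in the fit without a length adjustment. Its fall in Crtc2 muscle was not called with any of the length adjustments. In GFP muscle its fall was not called with the principal length adjustment. Atp5e was at 960.4, 942 and 945 CPM in fed GFP and 616, 470.4 and 414 CPM in ADF GFP libraries, a fall of 0.92 ± 0.18 (1.9-fold lower, adjusted p = 0.00244 by edgeR). In Crtc2 muscle it was at 1329.6, 913 and 1129.5 CPM fed and 744, 622 and 781 CPM under ADF, apart, a fall of 0.65 ± 0.18 (adjusted p = 0.0208 by edgeR), the single fall called there in that fit. That fall was -0.51 with an adjusted p of 0.124 without fed Crtc2 replicate 1, and its adjusted p was 0.0579 and 0.119 without ADF Crtc2 replicate 1 and 2. Atp5d, the delta subunit beside it, was uncalled in all 5 comparisons. The 3 c-ring genes Atp5g1, Atp5g2 and Atp5g3, whose products are the same mature peptide, lay between -0.44 and -0.08 in GFP muscle and between 0.05 and 0.17 in Crtc2 muscle. All were uncalled in the fit without a length adjustment, while Atp5g1 was called lower in GFP muscle with the principal length adjustment. Atp5g3 had 1133 ± 147 CPM per kilobase of transcript in fed GFP muscle (mean ± SD, n = 3), far above Atp5g2 with 86.8 ± 11.9.

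Of the stalk and membrane subunits, 5 of 7 fell in GFP muscle and 1 rose in Crtc2 muscle. Atp5l, subunit g at the dimer contact, was at 235, 210.0 and 207 CPM in fed GFP and 134, 136 and 82.1 CPM in ADF GFP libraries, a fall of 0.89 ± 0.19 (adjusted p = 0.00483 by edgeR). Its Crtc2 libraries were at 214, 227 and 207 CPM fed and 188, 178 and 175 CPM under ADF, apart but uncalled (-0.26 ± 0.19). Atp5j2, subunit f, was at 740.2, 753 and 880.1 CPM in fed GFP and 494, 437 and 363 CPM in ADF GFP, a fall of 0.87 ± 0.17, and at 965, 712 and 803 CPM in fed Crtc2 and 590.4, 608 and 646 CPM in ADF Crtc2 libraries. Its ADF libraries lay below the fed ones under both vectors. Atp5k, subunit e, was at 583, 531 and 603 CPM in fed GFP and 405, 338 and 230.0 CPM in ADF GFP libraries, a fall of 0.82 ± 0.19 (adjusted p = 0.00895 by edgeR). With the Crtc2 vector it was at 799, 602 and 635 CPM fed and 462, 453 and 494 CPM under ADF, apart and uncalled. Its value is uncertain, since the pseudogene Atp5k-ps2 had 12895 counts in the table (30.9 to 50.3 CPM in fed GFP and 19.2 to 23.6 CPM in ADF GFP libraries) and reads of the copies may have been split. Atp5h, subunit d of the outer stalk, was at 555, 511 and 574 CPM in fed GFP and 377, 308 and 270.0 CPM in ADF GFP, a fall of 0.78 ± 0.16, and at 637, 586 and 532 CPM in fed Crtc2 and 410.2, 432 and 458 CPM in ADF Crtc2 libraries, where ADF was again lower without overlap and uncalled. Atp5j, the coupling factor of the stalk, fell by 0.63 ± 0.18 in GFP muscle. Atp5f1, the long subunit b of the same stalk, was at 0.06 ± 0.18 in GFP muscle and rose by 0.62 ± 0.18 in Crtc2 muscle (adjusted p = 0.0256 by edgeR), a call lost without fed Crtc2 replicate 1 (0.0641) or 3 (0.131) and without each ADF Crtc2 library (0.0664, 0.0677 and 0.0935). Atp5o, which joins the stalk to the head, was at -0.54 ± 0.17 in GFP muscle with no overlap and an adjusted p of 0.0676. Atp5s, a loosely associated factor and not a subunit of the core enzyme, was low, at 7.52 to 10.3 CPM in fed GFP and 11.4 to 13.2 CPM in ADF GFP libraries, and uncalled.

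Per kilobase of principal transcript, the muscle forms were among the highest members in fed GFP muscle: Cox8b at 2366 ± 29.6, Cox6a2 at 2282 ± 153, Atp5e at 2255 ± 23.2, Cox7a1 at 2242 ± 207 and Atp5b at 2174 ± 267 CPM per kilobase (mean ± SD, n = 3). Cycs was far lower at 43.2 ± 2.32. In ADF GFP muscle Atp5b was at 2663 ± 461 CPM per kilobase, while Cox8b was at 1185 ± 204, Cox7a1 at 1038 ± 259 and Atp5e at 1188 ± 248. In ADF Crtc2 muscle Atp5b was at 3306 ± 168 and Cox8b at 1787 ± 205. Atp5b and Cox8b were within their spread of each other in fed GFP muscle, and under ADF Atp5b was the higher by more than the spread with either vector. Their principal transcripts have 1916 and 360 bases, and the part of transcript length in this change was not tested.

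Other genes of oxidative phosphorylation were counted over lists chosen with earlier results of these data known, beside 4.06% of all genes that rose and 3.06% that fell in GFP muscle and 6.3% and 4.68% in Crtc2 muscle. Of 40 complex I and II subunits, 20 fell and 1, Sdha, rose in GFP muscle under ADF, with a median of -0.65, and 6 rose and 3 fell in Crtc2 muscle. Ndufc1 of complex I fell by 0.97 ± 0.16 in GFP muscle and was the 1 gene of that list called higher in Crtc2 than GFP muscle under ADF (0.70 ± 0.16, adjusted p = 0.0492 by edgeR). In that comparison all 40 had a positive log2 fold change, with a median of 0.46, where 48.4% of all genes were positive. For 29 of them edgeR's unadjusted p was under 0.05, against 4.07% of all genes. The ADF Crtc2 libraries lay wholly above the ADF GFP ones for 30, against 9.6%. The shift was thus not particular to the members. Of 6 complex III assembly factors, Uqcc2 (-0.97 ± 0.21) and Uqcc3 (-0.91 ± 0.22) fell in GFP muscle, and 0 of 6 were called in Crtc2 muscle. Among 23 complex IV assembly and copper or heme delivery factors, 5 fell and 1 rose in GFP muscle, with Pet100 at -1.68 ± 0.29, the copper chaperone Cox17 at -1.59 ± 0.33 and Taco1, a translational activator of a mitochondrial complex IV subunit, at 2.26 ± 0.37. In Crtc2 muscle 2 of the 23 rose, Taco1 (1.82 ± 0.36) and Coa5 (0.81 ± 0.20), and 2 fell, Cox19 (-1.18 ± 0.24) and Cox17 (-1.02 ± 0.32). Of 10 ATP synthase factors, 3 fell in GFP muscle (Usmg5 at -0.84 ± 0.19, 2010107E04Rik at -0.90 ± 0.16 and Fmc1 at -0.86 ± 0.19) and 0 in Crtc2 muscle. Of the 4 late complex IV and supercomplex factors, Higd1a fell in both, by 0.63 ± 0.19 and 0.59 ± 0.19. Of 17 regulators of these genes 0 fell; 2 rose in GFP muscle, Ppard (1.37 ± 0.33) and Polrmt (1.25 ± 0.33), and 3 rose in Crtc2 muscle, the third being Esrra, an orphan receptor that drives many of these genes (0.79 ± 0.20, adjusted p = 0.012 by edgeR). Ppargc1a, the coactivator known for mitochondrial biogenesis, was at 17.7 to 44.4 CPM in fed GFP and 24.5 to 52.2 CPM in ADF GFP libraries and uncalled in all 5 comparisons.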

How the data were processed

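RNA of 12 tibialis anterior samples was sequenced, and the values are raw counts per gene as deposited by the authors. Per the submitters' processing notes, the tools were featureCounts (Subread 1.6.1), SAMtools 1.7, HISAT2 2.0.5 and DESeq2 1.18.1, and the builds GRCm38 and mm10; whether counting used strand is not given in the sources used here. Library totals were 24232450 to 34610417 counts. Counts were fitted with edgeR 4.0.16 (limma 3.58.1, R 4.3.3): TMM scaling, filterByExpr over the 4 groups, a robust quasi-likelihood fit of 4 group means and Benjamini-Hochberg adjustment over 16007 genes at 0.05. Standard errors are the log2 fold change divided by the root of F. Transcript lengths and coordinates came from GENCODE M21 on GRCm38, which matched 99.9% of genes. The edgeR step was tested on simulated counts. Alternatives were DESeq2 1.42.0, library totals, other filters, only the groups compared, each library left out, a replicate block and length adjustments. Values in every library are given for the called members of smallest adjusted p (at most 16), for the isoform pairs, and for Cycs, Cyc1, Uqcrc1, Uqcrfs1, Atp5a1 and Atp5b. The members and lists were chosen with earlier results of these data known. Marker lists of 9 cell types were summed in each library. With fed and ADF libraries in turn, GFP muscle before Crtc2 muscle, sums of endothelial markers were 277.5 to 563.6, 305.6 to 462.5, 353.5 to 496.2 and 243.7 to 303.8 CPM, of adipocyte markers 8.15 to 19.3, 28.7 to 49.2, 9.7 to 24.7 and 18.8 to 64.8 CPM, of satellite cell markers 4.69 to 10.8, 5.44 to 7.17, 6.66 to 10.3 and 0.632 to 4.36 CPM, and of erythrocyte markers 74 to 152.4, 119.1 to 396.2, 71.1 to 213.9 and 69.9 to 176.4 CPM.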

Additional observations from a re-analysis of the deposited data

How the results depend on the processing

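For ADF against fed GFP muscle, the 1 higher member was 0 with library totals, a mean of at least 10 CPM, only the groups compared, the exon length adjustment alone or with the replicate block, and 0 to 2 with 1 library left out. Among all genes, in the same order, 476 of 16007, 625 of 7839, 447 of 14394, 348 of 15997, 398 of 15997 and 382 to 714 were higher. The 20 lower members were 11 to 21 with 1 library left out, 11 with the exon length adjustment and 3 with the principal transcript length adjustment, which was chosen after seeing the data; the median was -0.65 to -0.45 and -0.15. Among all genes in GFP muscle, 265 to 516 were lower with 1 library left out. The exon length adjustment had 443 of 15997 genes lower and the principal one 478 of 7838. For ADF against fed Crtc2 muscle, the 5 higher members were 1 with library totals, 3 to 5 with 1 library left out and 9 with the replicate block and exon length adjustment. At those settings 511 of 16007, 658 to 1112 and 1235 of 15997 genes were higher. The 1 lower member was 15 with library totals, 6 with DESeq2, 2 without a filter, 10 with a mean of at least 10 CPM, 2 with only the groups compared, 0 to 2 with 1 library left out, 0 with the exon length adjustment, alone or with the block, and 0 with the principal length adjustment. Among all genes, in the same order, 1234 of 16007, 1547 of 22607, 950 of 22607, 946 of 7839, 745 of 14057 and 471 to 828 were lower. With the length adjustments these were 573 of 15997, 541 of 15997 and 845 of 7838 genes. The members' median of -0.13 was -0.42 with library totals, 0.06 with the block and exon length adjustment and 0.08 with the principal length adjustment. For Crtc2 against GFP under ADF, the 0 higher members were 14 with DESeq2, 2 without a filter, 2 with a mean of at least 10 CPM, 5 with only the groups compared, 0 to 2 with 1 library left out and 1 with the principal length adjustment, with medians of 0.31 with library totals and 0.26 with the last. Among all genes, in the same order, 168 of 15501, 38 of 22607, 23 of 7839, 59 of 14099, 0 to 17 and 14 of 7838 were higher. For the interaction, DESeq2 called 3, where it called 0.322% of the genes to which it gave an adjusted p. The members' median interaction was 0.66 with the block and exon length adjustment and 0.24 with the principal length adjustment. The Cox7a1 over Cox7a2 difference was -0.43 to -0.34 with 1 library left out, where fewer arrangements exist. Paired by replicate number it was -0.39 with an adjusted exact p of 0.25. Every same-numbered difference was negative, so the unadjusted p was the smallest that such pairing can give. After adjustment 1 such test alone could not pass. The replicate block alone gave 1 higher and 20 lower with a median of -0.64 in GFP muscle and 5 and 1 with -0.12 in Crtc2 muscle. Of all 16007 genes that block had 639 higher and 449 lower in GFP and 978 and 686 in Crtc2 muscle. Same-numbered libraries did not deviate together (correlations of -0.038 to 0.041), so the numbers were not taken as pairs. The cause of these shifts was not tested. Depth limits Cox6b2 and, in fed GFP and ADF Crtc2 muscle, Cox4i2, which have few counts there.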
